A study of Mus musculus with 282 samples.

Results

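Retained introns were examined in the whole hypothalamus of male mice fed a high fat diet, in 282 unstranded mRNA libraries that the labels give as 1 mouse each. Of 267 pairs of libraries of 1 strain, 1 pair (CXB-6/ByJ replicates 2 and 3) differed by a constant factor, with replicate 2 at -0.488% from replicate 3. This factor held to within 0.1% for 100% of 34338 transcripts above 1 FPKM, a difference below sampling noise. In the other pairs at most 0.452% of transcripts kept to such a factor. The mean of these 2 libraries was counted as 1 sample, which leaves 281 samples, called mice here. An event was counted where, at 1 gene, a transcript carried an exon with the same outer ends as a pair of exons of another transcript and so covered the intron between them. This rule, applied to the deposited transcript models, gave 3773 events, which hold 3580 distinct introns in 1913 genes. They are part of 25952 splicing events of 7 types in 6805 genes. Retention was measured as PSI, the FPKM of the retaining transcripts divided by the FPKM of all transcripts of the event, so that 0 means that the intron was always spliced out and 1 that it was always kept. FPKM are fragments scaled to transcript length and library size, and carry no read counts.

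The mice came from 99 strains of the Hybrid Mouse Diversity Panel, and 84 of these strains had 3 mice, 13 had 2 mice and 2 had 1 mouse. They were 25 classical inbred strains (71 mice), 43 BXD strains (126 mice), 18 AXB and BXA strains (47 mice), 7 CXB strains (20 mice) and 6 BXH strains (16 mice). BXD strains are recombinant inbred strains of C57BL/6J and DBA/2J, and AXB and BXA strains are those of A/J and C57BL/6J. The labels name no treatment besides the diet and give no age, and no mice on another diet were measured. The labels put 280 of these mice in a strain, and 1 mouse whose labels name different strains entered no comparison.

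Introns are removed from the primary transcript by the spliceosome, which recognises a 5′ splice site, a branch point and a 3′ splice site. Transcripts that keep an intron are often held in the nucleus or, where the intron brings a stop codon into the reading frame, degraded after export. Introns detained in the nucleus are well known in genes of the splicing machinery itself, where they hold back mRNA that can be released later.

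Some of the introns that the results turn on are shown here to make the events concrete. Each line gives an intron from its 5′ to its 3′ end, read from annotated GENCODE M21 transcripts that retain it, with the first and last bases in capitals. The first 2 introns (Slx1b, chr7:126692056-126692320, minus strand, and Gas5, chr1:161037316-161037504, plus strand, both mm10) are shown for their differences between strains.
Slx1b: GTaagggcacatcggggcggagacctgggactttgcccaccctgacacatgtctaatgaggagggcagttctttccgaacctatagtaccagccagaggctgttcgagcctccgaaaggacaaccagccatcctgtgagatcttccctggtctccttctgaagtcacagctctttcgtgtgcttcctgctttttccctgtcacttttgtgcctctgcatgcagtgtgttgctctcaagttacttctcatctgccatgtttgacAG
Gas5: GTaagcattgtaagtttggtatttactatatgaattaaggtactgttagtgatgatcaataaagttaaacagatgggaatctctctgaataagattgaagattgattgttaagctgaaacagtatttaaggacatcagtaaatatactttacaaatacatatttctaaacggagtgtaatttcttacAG

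The next 4 introns belong to some of the most abundant transcripts and are short (Eef1a1, chr9:78479193-78479277; Aldoa, chr7:126797549-126797643; Calm2, chr17:87435711-87435790; Hnrnpk, chr13:58393869-58394075; all on the minus strand). By PSI, each was spliced out of nearly all transcripts in nearly all mice, though the PSI of Eef1a1, Aldoa and Calm2 is uncertain, as given below.
Eef1a1: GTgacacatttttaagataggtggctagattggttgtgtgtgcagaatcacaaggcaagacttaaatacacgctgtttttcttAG
Aldoa: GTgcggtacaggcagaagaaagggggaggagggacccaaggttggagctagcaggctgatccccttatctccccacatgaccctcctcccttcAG
Calm2: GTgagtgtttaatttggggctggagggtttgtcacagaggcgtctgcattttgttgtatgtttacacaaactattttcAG
Hnrnpk: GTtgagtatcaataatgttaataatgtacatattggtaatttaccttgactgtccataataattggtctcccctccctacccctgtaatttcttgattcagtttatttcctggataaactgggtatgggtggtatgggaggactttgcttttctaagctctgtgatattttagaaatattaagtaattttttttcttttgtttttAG

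The last intron is shown at both positions at which the deposited transcripts hold it (Srsf5, chr12:80947595-80947795 and chr12:80947596-80947796, plus strand). The second position lies 1 base from the annotated one, so that the intron no longer starts with GT and ends with AG.
Srsf5 at the annotated position: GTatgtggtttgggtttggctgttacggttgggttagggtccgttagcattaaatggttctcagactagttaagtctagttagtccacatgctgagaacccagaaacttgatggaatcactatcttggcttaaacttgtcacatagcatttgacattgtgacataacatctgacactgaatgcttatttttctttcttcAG
Srsf5 1 base away: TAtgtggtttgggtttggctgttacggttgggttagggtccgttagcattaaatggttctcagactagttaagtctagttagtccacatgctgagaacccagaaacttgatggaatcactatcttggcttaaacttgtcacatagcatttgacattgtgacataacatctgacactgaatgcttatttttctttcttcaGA

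This shift of 1 base was common on the plus strand and separated the libraries, which bears on every comparison between strains. Of 98286 plus-strand introns in the deposited transcripts, 28.3% lay 1 base from an annotated intron, against 0.883% of 78624 minus-strand introns. Transcripts with such an intron held 26.4% to 33.6% of the FPKM of spliced plus-strand transcripts in 263 libraries and 2.33% to 2.72% in the other 18. On the minus strand the share was 0.686% to 1.04% in all libraries. The 18 libraries were all mice of BXD-9/TyJ, BXD62, BXD70, BXD75, BXD85 and BXHA1 (2 mice) and 1 of the 3 mice of BXD87. Of the retained introns, 517 on the plus strand and 24 on the minus strand lay 1 base from an annotated intron. The counts of introns that differ between strains are therefore given with and without these 18 libraries, a choice made after the values had been seen. C57BL/6J, DBA/2J and A/J contain none of the 18. The adjusted p of a named difference between these strains is from the fit with all libraries, and each one that passed there also passed without the 18.

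The median PSI of a library over all retained introns was 0.223 to 0.265 in the 18 libraries, with a median of 0.246, against a median of 0.291 in the others. The gap lay on the plus strand, where the medians were 0.314 and 0.364, while on the minus strand they were 0.22 and 0.222. Apart from this, BXD-12/TyJ replicate 2 had the lowest median PSI of all libraries, 0.0987, and CXB-3/ByJ replicate 3 the next lowest, 0.19. The highest was 0.32. The tissue carried hypothalamic markers throughout: Pmch, Hcrt, Agrp, Pomc, Oxt, Avp and Cartpt were above 1 FPKM in 281 mice. Genes of neighbouring tissue varied, with Gh of the pituitary at 0 to 14329 and Ttr of the choroid plexus at 0.845 to 2040 FPKM. The thalamus genes Tcf7l2 and Prkcd were above 1 FPKM in 281 mice, with Prkcd at 4.66 to 207 FPKM. Of these marker lists Pou1f1 and F5 were not found among the genes. A fit with the pituitary, choroid plexus and thalamus scores as covariates called 1249 retained introns between strains, beside 1295 without them.

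**Figure D1:**
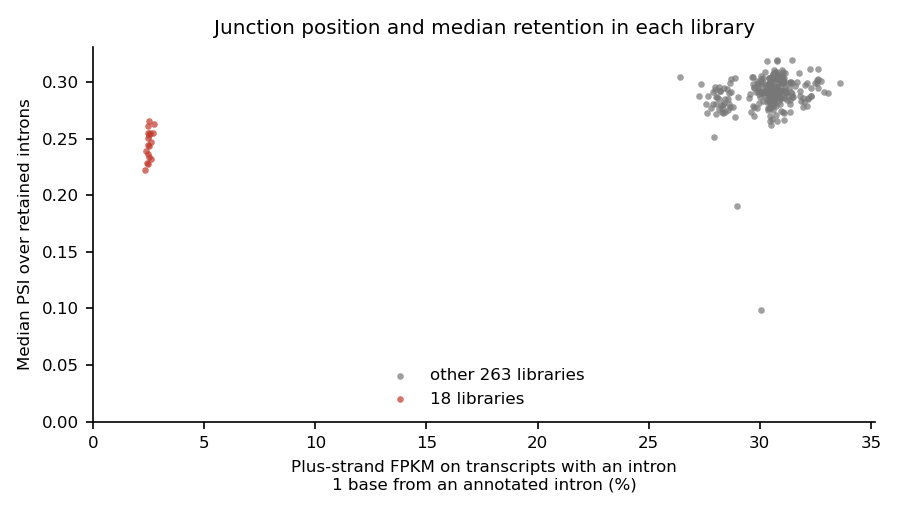
Each point is 1 of 281 libraries. The x axis gives the percentage of plus-strand FPKM on transcripts with an intron 1 base from an annotated one, and the y axis the median PSI over retained introns. The 18 libraries lie at 2.33% to 2.72% on the x axis, the other 263 at 26.4% or above, and the lowest point on the y axis is BXD-12/TyJ replicate 2 at 0.0987.

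Retained introns were short. Over the 3580 distinct introns the median length was 345 nt, the quartiles lay at 120 and 1049 nt and the range ran from 20 to 20306 nt. The other 173330 introns of the deposited transcripts had a median of 1453 nt, and the 42903 other introns of the genes that hold a retained intron had a median of 851 nt. Introns below 300 nt made up 46.6% of the retained introns, 27.9% of the other introns of these genes and 17.5% of all others. Introns below 70 nt numbered 75. Whether such short gaps between exons are removed by splicing was not tested. The 3 shortest introns at a median event level of at least 5 FPKM were in Srsf5 (21 nt), Pa2g4 (24 nt) and Meg3 (24 nt), with mean PSI of 0.947, 0.904 and 0.974. The 3 longest were in Luc7l2 (15446 nt), Ttc7b (15216 nt) and Armc8 (14754 nt), with mean PSI of 0.406, 0.0674 and 0.174.

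**Figure D2:**
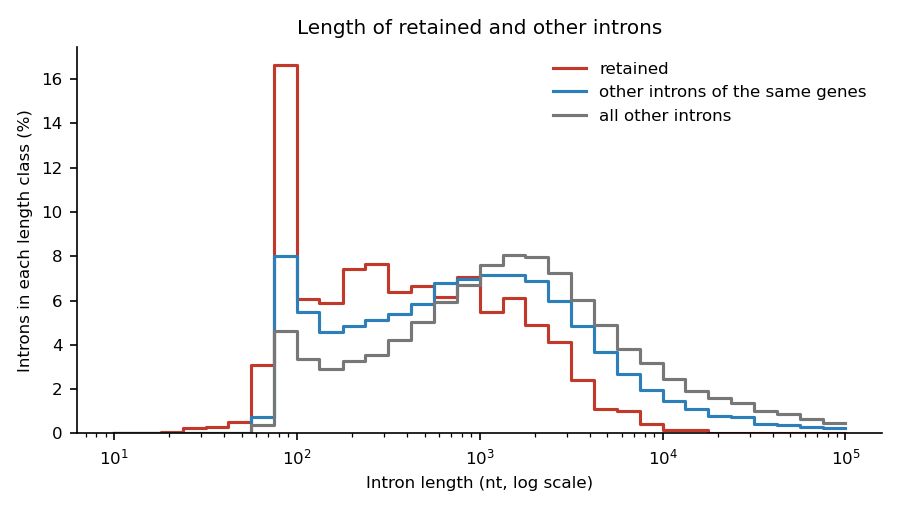
The x axis gives intron length in nt on a log scale and the y axis the percentage of introns in each length class, for distinct retained introns, for the other introns of the same genes and for all other introns. The median lengths are 345, 851 and 1453 nt, and the highest class of the retained introns lies below 100 nt.

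Most retained introns lay within coding sequence. By the GENCODE M21 annotation 2436 events (64.6%) held an intron between coding exons in any annotated transcript, a class that took precedence over the others. Of the rest, 123 lay in a 5′ UTR, 126 in a 3′ UTR and 134 in a non-coding transcript, and 954 (25.3%) were no annotated intron. The place and position of other introns were not counted, so these shares are not set against a background. In the spliced transcripts the intron was internal in 3015 events, the last in 586 and the first in 161. The retaining transcript was an unannotated isoform of a known gene in 2351 events and a known transcript in 1245. A single event was found at 1092 genes (57.1%), and 412 genes had 3 or more, with the imprinted non-coding RNA Meg3 at 40 events. These events at 1 gene share transcripts and are not independent of each other.

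Intron sequence could be read for 2162 events. It began with GT and ended with AG in 1784 (82.5%) and began with GC and ended with AG in 59. Of the 319 with other ends, 226 lay 1 base from an annotated intron. Among 1651 annotated introns with sequence 95.9% began with GT and ended with AG. Where the intron lay between coding exons, 1170 of 1391 (84.1%) held an in-frame stop codon in every annotated frame. The 193 with no in-frame stop codon were shorter, with a median of 102 nt against 308.5 nt, and 83 of them had a length that is a multiple of 3. One was the 80-nt intron of Calm2 printed above, while the introns of Slx1b, Eef1a1, Aldoa and Hnrnpk each held a stop codon. The median GC content was 52.2%.

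The mean PSI of an event over the mice had a median of 0.338 (quartiles 0.145 and 0.592). It was below 0.1 in 598 events and at least 0.9 in 149. Introns between coding exons had a median of 0.219, those of 5′ UTRs 0.523, those of 3′ UTRs 0.544 and those of non-coding transcripts 0.554. First introns had a median of 0.499, internal introns 0.281 and last introns 0.55. PSI was lower in events with more FPKM (Spearman rho of -0.472 over 3773 events, which partly share genes), while rho with intron length was 0.0487 and with GC content -0.015. PSI and the abundance of the event are computed from the same FPKM, so these are descriptions only.

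The 78 events with a median of at least 100 FPKM had a median PSI of 0.0193. Among the 5 most abundant were introns of Aldoa, a glycolytic enzyme, Eef1a1, a translation elongation factor (2 introns), and Calm2, a calmodulin gene. For Aldoa the lowest, median and highest PSI over the mice were 0.00147, 0.00957 and 0.0166 at a median of 898 FPKM. For the 85-nt intron of Eef1a1 they were 0, 0.0038 and 0.0121, and for its 89-nt intron 0, 0.000563 and 0.00233. By PSI, both Eef1a1 introns therefore stayed close to complete splicing in every mouse. For Calm2 they were 0, 0.00534 and 0.013. Aldoa, Eef1a1 and Calm2, like ribosomal protein genes, have near-identical intronless copies elsewhere in the genome that can take reads of the exons, so their PSI is uncertain.

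At the other end were introns that nearly every transcript kept. The 5 given here were chosen for the highest mean PSI, which leaves little room for a difference between strains. Hsp90ab1, a heat shock chaperone, had a 37-nt annotated intron (chr17:45571482-45571518, minus strand, GC to AG) with a PSI of 0.916 to 1 and a median of 0.999. This stretch held no in-frame stop codon, so the form counted as retaining can be the ordinary coding transcript. Whether so short a gap is removed by splicing was not tested. Calm3 had a 1019-nt intron in its 3′ UTR at 0.99 to 1, and Idh3b, a subunit of mitochondrial isocitrate dehydrogenase, a 118-nt intron in its 3′ UTR at 0.945 to 1. A pair of Meg3 introns of 230 and 36 nt stood at 0.929 to 1 and 0.9 to 1. In these 5 events the spliced form was the minor one in every mouse, with adjusted p between strains of 0.861 to 1 by limma's moderated F test.

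Retention of many introns differed between strains. PSI was tested by a moderated F test (limma) over all strains for the 3772 retained introns with a PSI in at least 200 mice, with p values adjusted over the events of all 7 types. With all libraries 1295 retained introns (34.3%) passed at an adjusted p below 0.05, where 29.2% of all 25920 events passed. Without the 18 libraries 592 of 3770 (15.7%) passed, where 14.5% of all events passed. Both fits called 574. Of the 719 called with all libraries and not without the 18, 647 (90%) were on the plus strand, where the share called fell from 44.8% to 13%. On the minus strand it was 22.3% and 18.8%. Of the introns 1 base from an annotated one, 54.2% passed with all libraries and 12.2% without the 18. The share of retained introns called was thus near that of all events in both fits. In the fit without those libraries it was 14% for skipped exons, 13% for alternative 3′ sites, 14.3% for alternative 5′ sites, 14.3% for first exons, 20.3% for last exons and 17.8% for mutually exclusive exons.

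**Figure D3:**
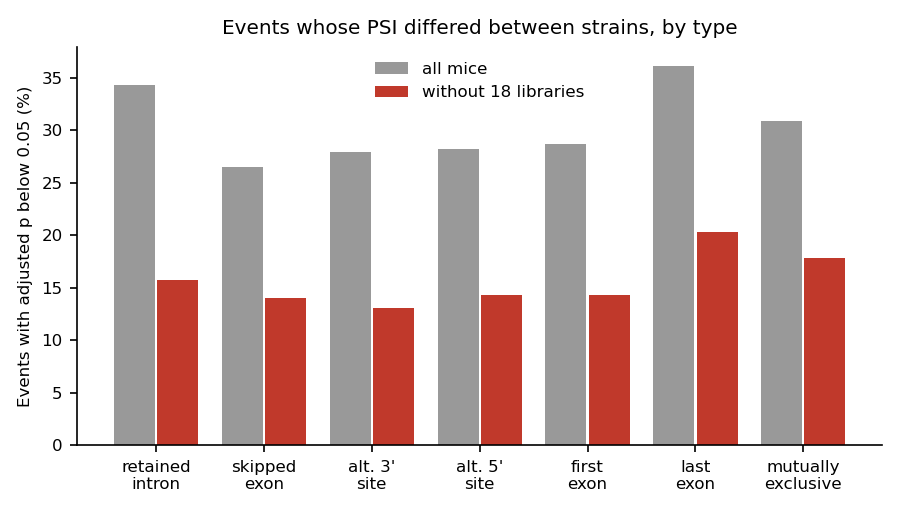
Bars give the percentage of the tested events of each type whose PSI passed an adjusted p of 0.05 between strains, with all mice (grey) and without the 18 libraries (red). Retained introns stand at 34.3% and 15.7%, and every type is lower without the 18 libraries.

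The share of the PSI variance that lay between strains, taken as the intraclass correlation, was small for most introns. Its median was 0.0906 with all libraries and 0.0543 without the 18. It reached 0.5 in 261 and 78 introns and 0.75 in 62 and 16. Without the 18 libraries 15.7% of introns between coding exons passed, 24.6% of those in non-coding transcripts and 18 of 51 (35.3%) with a small RNA gene inside. By length, 19.2% of the 78 introns below 70 nt passed, 8.86% of those of 70 to below 150 nt, 16.7% of those of 150 to below 300 nt, 17.3% of those of 300 to below 1000 nt and 20.3% of those from 1000 nt. The test recovered 97 of 100 simulated events with a strain share of 0.5 and 31 of 100 with a share of 0.2. These data were normal and unbounded, and 25720 of the 25920 simulated events held no strain effect. Many more events passed in the real data, which changes the adjusted threshold. The recovered shares are therefore not the power of the test on real PSI.

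Total abundance of the same genes was tested in the same way. Gene FPKM passed between strains for 1409 of the 1913 genes with a retained intron (73.7%), where 74.9% of all genes passed. This share was near the background. Without the 18 libraries these were 67% and 70.4%. Within the genes with a retained intron, gene FPKM passed for 80.5% of the 795 with an intron that differed in PSI. It passed for 68.8% of the 1118 with none. Without the 18 libraries these were 76.9% of 438 and 64% of 1475 genes. Whether these shares differ was not tested. Over the mice, the median over 3723 events of the Spearman rho between PSI and gene FPKM was -0.0133 (quartiles -0.114 and 0.078), a description in which both measures share the transcripts of the event.

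Of the 12 introns with the largest strain share among events of at least 5 FPKM, 7 lost most of it without the 18 libraries, namely those of A730017C20Rik, Rpl13, Copg1, Htt, Rundc3a, Gripap1 and Vamp2. The intron of Htt, the huntingtin gene, had a mean PSI of 0.984 in the 18 libraries (0.907 to 1) and 0.166 in the others (0.0729 to 0.316). That of Rpl13, a protein of the large ribosomal subunit, had 0.922 (0.612 to 1) and 0.035 (0.00876 to 0.0751). The groups of libraries did not overlap in either. Their strain shares of 0.901 and 0.91 became 0.0441 and 0.126 without the 18, with adjusted p of 0.505 and 0.564. Vamp2, the synaptic vesicle protein synaptobrevin, kept a call at a strain share of 0.306 (adjusted p = 0.000284), and the 53-nt intron of Meg3 went from 0.934 to 0.669. All mice of 6 strains are among the 18 libraries, so that in these strains the position of the junctions and the strain cannot be told apart.

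Of the 12, Hp1bp3, Nvl and Nav1 stood at nearly the same strain share without the 18 libraries, and the same rule then added Rmst, Bbs7, Dgke, Vezt, Copa, Crocc, Slx1b and Gas5. Hp1bp3 codes for a linker histone-like protein that binds heterochromatin protein 1. Its 2595-nt intron (chr4:138226049-138228643, plus strand, between coding exons) has an annotated retaining transcript, and its strain share was 0.965 in both fits (adjusted p = 1.5e-82, and 8.41e-77 without the 18). Strain means fell into 48 strains at up to 0.0101 and 51 strains from 0.0458 to 0.0811. PSI in the 3 C57BL/6J mice was 0.0623, 0.073 and 0.0669. In DBA/2J it was 0.0113, 0.00522 and 0.00345, and in A/J 0.00707, 0.00726 and 0.00532. Both strains lay below C57BL/6J with no overlap, with a difference of -0.0607 in PSI (SE 0.0071, adjusted p = 1.36e-11) for DBA/2J and of -0.0608 (adjusted p = 8.76e-12) for A/J. The retained form stayed a minor one in every strain.

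Nvl, an AAA ATPase of ribosome assembly, held a 2081-nt intron between coding exons (chr1:181095055-181097135, minus strand) with means of at most 0.144 in 22 strains and of 0.316 to 0.445 in 77 strains. In C57BL/6J PSI was 0.347, 0.395 and 0.416 and in DBA/2J 0.421, 0.444 and 0.376, so these strains overlapped. In A/J it was 0.00912, 0.0095 and 0.00742, a difference from C57BL/6J of -0.377 (SE 0.0345, adjusted p = 6.17e-18). Its strain share was 0.936 without the 18 libraries and 0.982 among AXB and BXA strains (adjusted p = 5.41e-19), where 9 of 18 strains lay nearer to A/J. Among BXD strains the share was 0.0645 without the 16 BXD libraries of the 18 (adjusted p = 0.744).

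Nav1, a microtubule-binding protein of neurons, held a 756-nt intron (chr1:135453289-135454044, minus strand) at 0.304, 0.363 and 0.277 in C57BL/6J. It stood at 0.0961, 0.0809 and 0.074 in DBA/2J and at 0.0534, 0.0381 and 0.0244 in A/J. Both strains lay below C57BL/6J, with adjusted p of 3.82e-06 and 8.3e-09. Strain means fell into 42 strains up to 0.0837 and 57 strains from 0.265. Rmst, a long non-coding RNA that binds the transcription factor Sox2, held an 893-nt intron (chr10:92133349-92134241, minus strand) at 0.806, 0.509 and 0.425 in C57BL/6J, 0.032, 0.057 and 0.0189 in DBA/2J and 0.0727, 0.0603 and 2.02e-07 in A/J. The differences of -0.544 and -0.536 in PSI (SE 0.0844) had adjusted p of 8.49e-07 and 1.08e-06. Strain means were at most 0.268 in 47 strains and at least 0.41 in 52.

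In the other introns of this kind the strains formed less distinct sets. Bbs7, a subunit of the BBSome of cilia, held a 1383-nt intron at 0.0407, 0.0437 and 0.0129 in C57BL/6J. In DBA/2J its PSI was 0.272, 0.296 and 0.17 and in A/J 0.321, 0.264 and 0.251, both above C57BL/6J (adjusted p = 0.0015 and 8.41e-05). Dgke, diacylglycerol kinase epsilon, went the other way, with 0.0871, 0.13 and 0.113 in C57BL/6J against 0.0169, 0.024 and 0.041 in DBA/2J (adjusted p = 0.00187) and 0.0207, 0.0165 and 0.0362 in A/J (adjusted p = 0.00101). Crocc, the ciliary rootlet protein rootletin, held a 341-nt intron at 0.349, 0.376 and 0.434 in C57BL/6J and 0.0759, 0.125 and 0.238 in DBA/2J (adjusted p = 0.0252). In A/J it was 0.418, 0.423 and 0.44, with an adjusted p of 0.92.

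Slx1b, the catalytic subunit of a structure-specific endonuclease, held the 265-nt intron printed above. Its PSI was 0.0318, 0.201 and 0 in C57BL/6J, 0.185, 0 and 0.091 in DBA/2J and 0.354, 0.434 and 0.633 in A/J. A/J lay above C57BL/6J with no overlap, by 0.396 (SE 0.076, adjusted p = 0.000186), and DBA/2J overlapped C57BL/6J. Gas5, a non-coding host gene of small nucleolar RNAs, held the 189-nt intron printed above at 0.14, 0.0849 and 0.151 in C57BL/6J, at 0, 0 and 0 in DBA/2J and at 0, 0.0317 and 0 in A/J. DBA/2J lay below C57BL/6J, with a difference of -0.126 (SE 0.0327, adjusted p = 0.0245), and for A/J the adjusted p was 0.0549. This intron contains Mir5117 and so overlaps an exon of another gene, whose reads cannot be told apart from those of a retained intron. Vezt, an adherens junction protein, and Copa, a coat protein of Golgi vesicles, had strain shares of 0.764 and 0.751 without the 18 libraries. The intron of Copa also overlaps an exon of another gene, and its PSI was at most 0.0833 in any mouse.

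**Figure D4:**
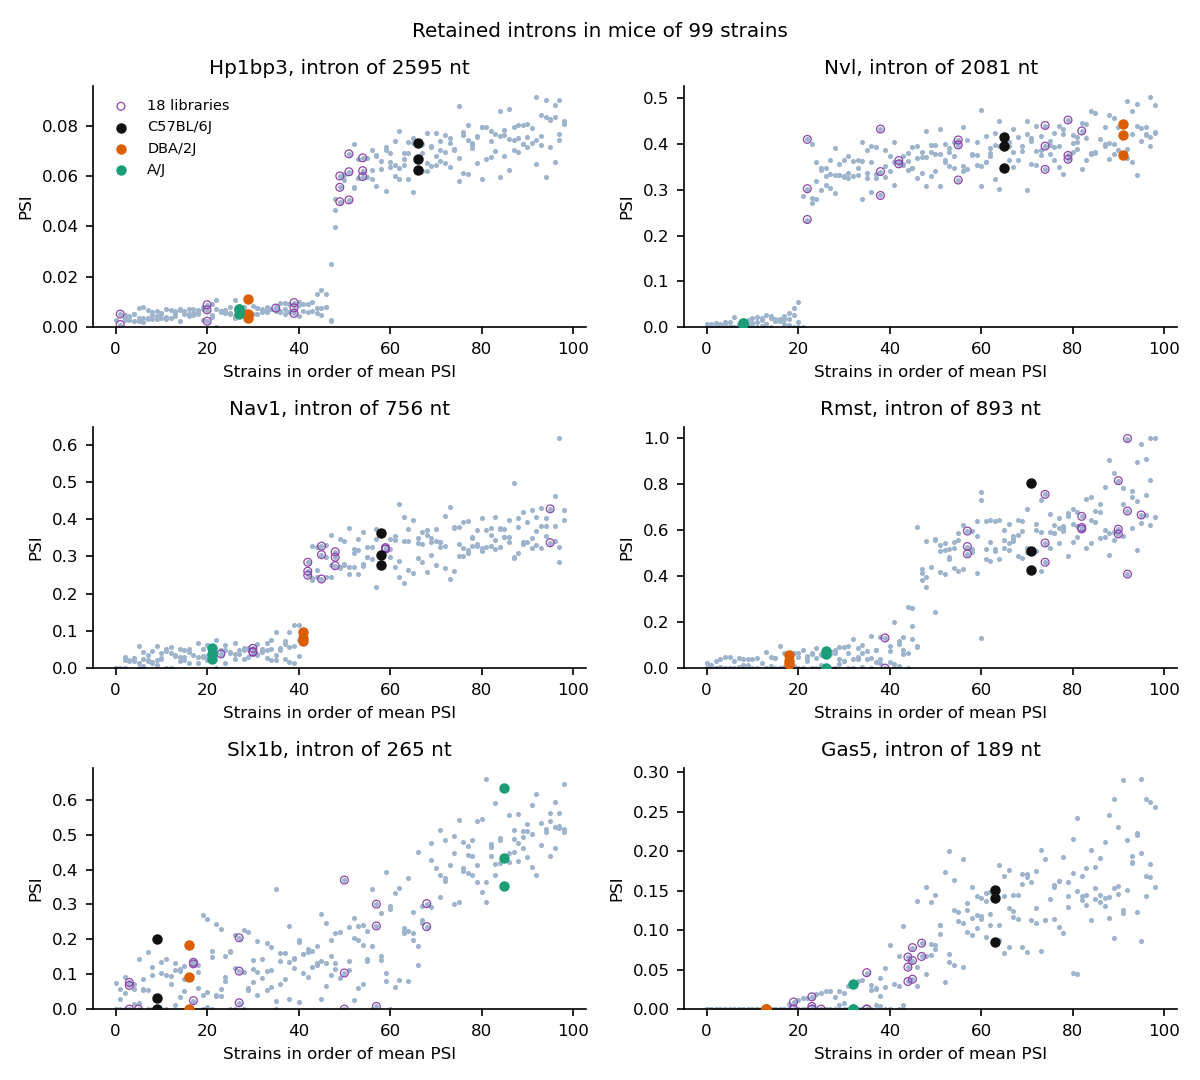
Each panel is 1 retained intron, with the mice of 99 strains as points, strains in order of their mean PSI on the x axis and PSI on the y axis (scales differ between panels). Black, orange and green mark C57BL/6J, DBA/2J and A/J, and open circles mark the 18 libraries. In Hp1bp3, Nvl, Nav1 and Rmst strains form a low and a high set, and the 18 libraries lie in both sets, except in Nvl where they lie in the high set.

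The parental strains of the recombinant panels were compared next, 3 mice each, within the fit over all strains. DBA/2J differed from C57BL/6J in 33 retained introns, 0.875% of 3772, where 0.891% of all events passed. PSI was higher in 13 and lower in 20, where 0.417% and 0.475% of all events were higher and lower. An unadjusted p below 0.05 was reached by 321. A/J differed from C57BL/6J in 43 retained introns, 1.14% of 3770, where 0.973% of all events passed, with 19 higher (0.456% of all events) and 24 lower (0.517%), and 383 reached an unadjusted p below 0.05. Both comparisons share the C57BL/6J mice. The median size of the called differences was 0.272 in PSI for DBA/2J and 0.284 for A/J. With the 18 libraries left out, none of which is of these strains, 36 introns were called for DBA/2J, where 0.916% of all events passed, and 45 for A/J, where 0.997% passed. With only the mice of each pair in the fit 4 and 9 were called. In simulated data with the same limits as above, a shift of 0.5 in DBA/2J was found in 71 of 100 events and a shift of 0.2 in 35.

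Recombinant strains carry the same alleles in other mice. The parental contrasts, however, took the spread of each event from all strains, the recombinant strains included. The calls compared here are therefore not independent, and a call among recombinant strains gives no direction. Among BXD strains 912 of 3771 retained introns passed, where 18% of all events passed, and 183 without the 16 libraries (3.67% of all events). Of the 33 introns that differed between DBA/2J and C57BL/6J, 26 (78.8%) passed among BXD strains without the 16 libraries, against 4.2% of the retained introns that did not differ between the parents. Among AXB and BXA strains 120 retained introns passed, where 2.74% of all events passed. Of the 43 introns that differed between A/J and C57BL/6J, 24 (55.8%) passed among AXB and BXA strains, against 2.58% of the others.

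The 6 largest differences between DBA/2J and C57BL/6J at a median of at least 5 FPKM were in Meg3, Rmst, Gabre, Gm14290, Tardbp and Slc15a2. The 2867-nt intron of Meg3 had a PSI of 3.27e-06, 0.000192 and 0.297 in C57BL/6J and 0.581, 0.956 and 0.997 in DBA/2J (adjusted p = 0.0467), and its share among BXD strains was 0.0359 (adjusted p = 0.772). Gabre, the epsilon subunit of the GABA-A receptor, had 0.987, 0.647 and 0.774 in C57BL/6J and 0.218, 0.589 and 0.00169 in DBA/2J (adjusted p = 0.0273). Its intron did not pass between strains overall (adjusted p = 0.165), and 0 of 43 BXD strains lay nearer to DBA/2J. For Meg3 and Gabre the parental difference was thus not matched by a call among the BXD strains.

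Gm14290, a predicted gene, had 0.113, 0.306 and 0.185 in C57BL/6J and 0.726, 0.739 and 0.661 in DBA/2J (adjusted p = 0.00194), and passed among BXD strains (adjusted p = 0.00609). Tardbp, the RNA-binding protein TDP-43, had 0.889, 0.691 and 0.766 in C57BL/6J and 0.409, 0.342 and 0.28 in DBA/2J (adjusted p = 0.0217, and 0.0214 among BXD strains). Its 959-nt intron (chr4:148617706-148618664, minus strand) lies between coding exons and holds an in-frame stop codon. Slc15a2, a peptide transporter, had 0.257, 0.527 and 0.518 in C57BL/6J against 0.0261, 0.112 and 0.0751 in DBA/2J (adjusted p = 8.07e-07) and 0.0893, 0.148 and 0.0396 in A/J (adjusted p = 4.02e-06). In Slc15a2 39 of 43 BXD and 15 of 18 AXB and BXA strains lay nearer to the other parent than to C57BL/6J, and C57BL/6J had the highest mean of all strains, 0.434.

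The 6 largest differences between A/J and C57BL/6J were in Pisd-ps2, Lats1, Rmst, Slx1b, Nvl and Habp4. Pisd-ps2, a pseudogene of phosphatidylserine decarboxylase, had 0.0425, 2.04e-05 and 0.113 in C57BL/6J and 1, 1 and 1 in A/J (adjusted p = 1.09e-09). Reads of its near-identical parent gene may be split with it. Lats1, a kinase of the Hippo pathway, had a 31-nt intron in its 3′ UTR at 1, 0.712 and 1 in C57BL/6J and 0.000887, 0.00109 and 0.375 in A/J (adjusted p = 0.00121). Reads of all strains were mapped on mm10. Whether this short gap is splicing or a deletion in the A/J genome was not tested. Habp4, an RNA-binding protein that also binds hyaluronan, had 0.156, 0.127 and 0.288 in C57BL/6J and 0.511, 0.326 and 0.834 in A/J (adjusted p = 0.0272). Pisd-ps2 and Lats1 passed among AXB and BXA strains, with adjusted p of 0.0129 and 0.00359, and Habp4 did not (adjusted p = 0.408).

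**Figure D5:**
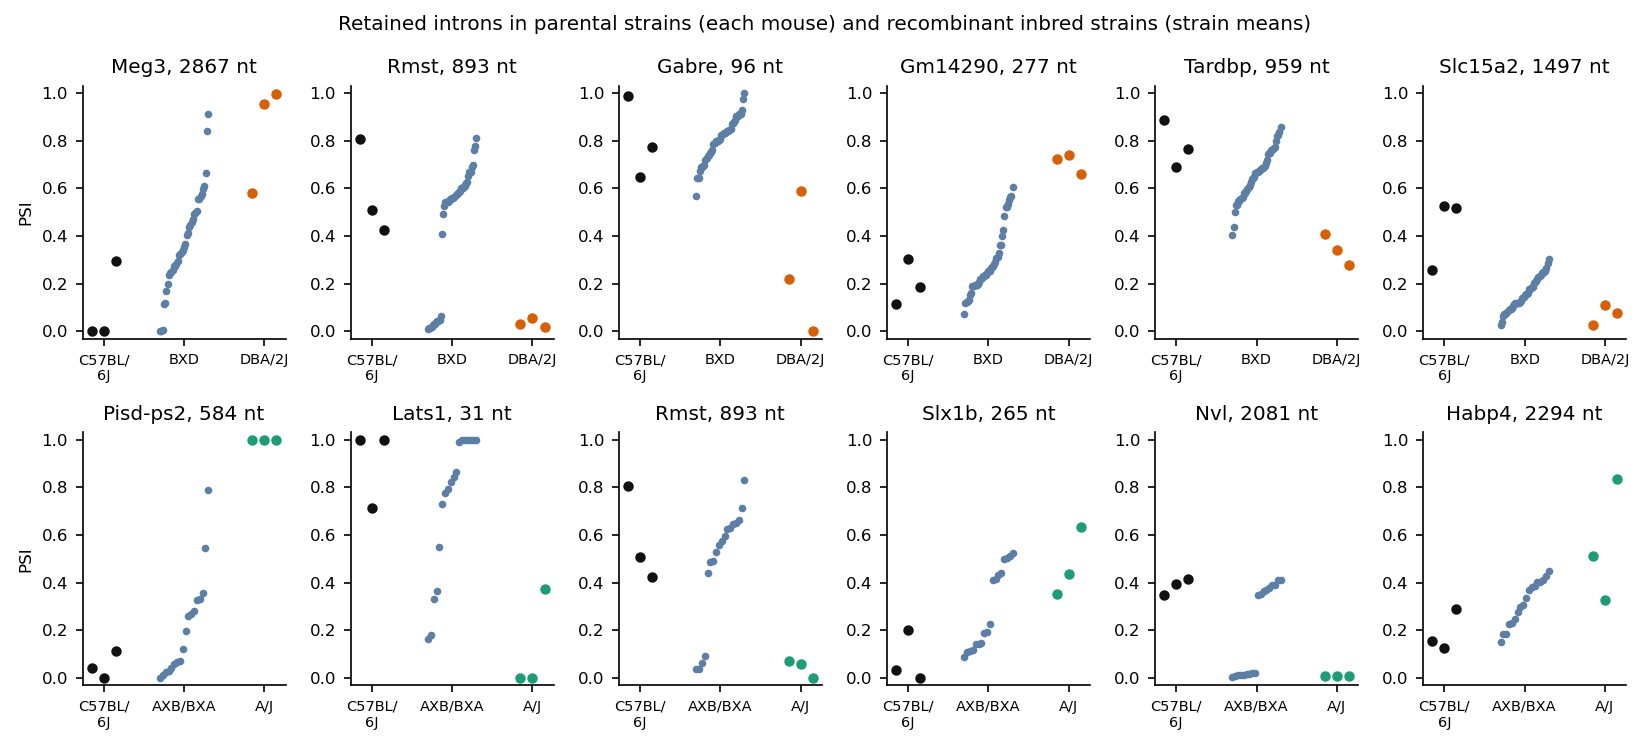
Each panel is 1 retained intron with PSI on the y axis. Outer columns show each of 3 mice of a parental strain and the middle column the means of the recombinant inbred strains, 43 BXD strains in the upper row and 18 AXB and BXA strains in the lower. The means of Rmst and Nvl split between the levels of the parents, while 0 of the BXD means of Gabre lie nearer to DBA/2J.

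Genes of the splicing machinery were then taken as lists. Among SR proteins, which bind exons and recruit the spliceosome, and the kinases that phosphorylate them, 35 introns in 9 genes were retained with a median mean PSI of 0.515, against 0.338 over all retained introns. Of these, 7 (20%) passed between strains, beside 34.3% of all retained introns, and 5 (14.3%) without the 18 libraries, beside 15.7%, in Srsf5, Srsf7 and Srsf11. The 1229-nt intron of Srsf5 (chr12:80947866-80949094, plus strand), which lies next to the intron printed above, had a PSI of 0.0786 to 0.862 with a median of 0.579 at 72.7 FPKM and a strain share of 0.652 with all libraries (adjusted p = 5.36e-25) and of 0.621 without the 18 (adjusted p = 2.35e-20). The lowest mouse was BXD-12/TyJ replicate 2, the library with the lowest median PSI. The 874-nt intron of Srsf7 stood at 0.0233 to 0.274 with a median of 0.198 (strain share 0.27, adjusted p = 0.000501, and 0.279 without the 18, adjusted p = 0.00115). Clk4, a kinase of SR proteins, had a 191-nt intron that passed with all libraries (adjusted p = 3.37e-13) and not without the 18 (adjusted p = 0.627).

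The core spliceosome held 60 retained introns in 18 genes with a median mean PSI of 0.423. Of these 14 (23.3%) passed between strains, beside 34.3% of all retained introns. Without the 18 libraries 3 (5%) passed, beside 15.7%, in Ddx23, Ddx46 and Luc7l2. Sf3b1, a U2 protein, had an 1813-nt intron at 0.0648 to 0.412 with a median of 0.291, with no call in either fit. Prpf40b, Prpf8 and Ddx39b passed with all libraries and not without the 18. The 144-nt intron of Prpf40b had a mean PSI of 0.0117 in the 18 libraries and 0.564 in the others, the 83-nt intron of Prpf8 of 0.207 and 0.838, and the 2177-nt intron of Ddx39b of 0.882 and 0.496. The direction of the gap thus varied between introns.

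Over all retained introns 34.3% passed, and 15.7% without the 18 libraries, which is the background for the next 2 lists. Among hnRNP and other splicing RNA-binding proteins, 57 introns in 21 genes were retained. Of these 16 (28.1%) passed, and 4 (7.02%) without the 18 libraries, in Hnrnpa1, Hnrnpl and Tardbp. The 207-nt intron of Hnrnpk had a PSI of 0 to 0.0573 at 94.4 FPKM and the 1855-nt intron of Hnrnpu of 0 to 0.0617 at 94 FPKM, with no call. Of genes known for detained introns, which stay in the nucleus, Arglu1, Ddx17, Ddx5, Ogt and Son had 13 retained introns with a median mean PSI of 0.506, of which 5 (38.5%) passed and 2 (15.4%) without the 18 libraries. Whether the shares of these lists differ from those of all retained introns was not tested. The 1265-nt intron of Ddx5, an RNA helicase, stood at 0.308 to 0.501 with a median of 0.409 at 210 FPKM, and differed between strains (strain share 0.549 with all libraries, adjusted p = 7.65e-16, and 0.513 without the 18, adjusted p = 2.64e-12). Son, a scaffold of nuclear speckles, passed as well (adjusted p = 0.00146, and 0.00178 without the 18). Ogt, the enzyme that adds O-linked N-acetylglucosamine to proteins, had a 3415-nt intron with a median PSI of 0.376 and an adjusted p of 4.41e-06 with all libraries and of 0.365 without the 18.

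Of 19 genes for ion channels and receptor channels, 40 introns were retained, and 20 (50%) passed, beside 34.3% of all retained introns. Without the 18 libraries 14 (35%) passed, beside 15.7%, among them introns of Cacna1e, Cacna1g, Gria3, Gria4, Grin2d, Kcnc4, Kcnip2, Kcnj9, Kcnt1 and Scn3b. Kcnj9, a G-protein-gated potassium channel, had a 2511-nt intron at 0.21 to 1 with a strain share of 0.581 with all libraries (adjusted p = 2.63e-19) and of 0.604 without the 18 (adjusted p = 3.63e-19), and RIIIS/J had the lowest strain mean, 0.249. Gria3, a glutamate receptor subunit, passed at 0.443 (adjusted p = 4.31e-11), and at 0.254 without the 18 (adjusted p = 0.0011). Hypothalamic neuropeptides and granins had 1 retained intron, in Scg2, a granin, at 0.774 to 1 with no call.

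Ribosomal protein genes held 30 events in 17 genes at low PSI, with a median mean PSI of 0.0908. Of these 9 (30%) passed and 5 (16.7%) without the 18 libraries, in Rpl13, Rpl31 and Rps6kb2. Over all retained introns these shares were 34.3% and 15.7%. The letters of the list also take in Rps6kb1 and Rps6kb2, which code for kinases of a ribosomal protein and not for ribosomal proteins. The 116-nt intron of Rpl13a stood at 0.00129 to 0.0231 at 333 FPKM. Nuclear genes of the respiratory chain held 14 events with a median mean PSI of 0.224, of which 4 (28.6%) passed and 3 (21.4%) without the 18 libraries, in Ndufa9, Uqcrc1 and Uqcrh. Uqcrh, a hinge protein of complex III, had a 643-nt intron at 0 to 0.829 (strain share 0.382, adjusted p = 2.16e-08, and 0.424 without the 18, adjusted p = 4.64e-09), and a 712-nt intron with the same start at 0 to 0.0196 and no call. Atp5g3, a subunit of ATP synthase, had a 476-nt intron at 0 to 0.0132 and 263 FPKM.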

How the data were processed

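Whole-hypothalamus RNA of each mouse was sequenced as an unstranded TruSeq mRNA library. The 2 libraries of CXB-6/ByJ that differed by a constant factor were averaged and counted as 1 mouse in every fit. Per the submitters' processing notes and the study's methods, the authors inspected read quality with FastQC and mapped the reads with STAR 2.3.1 on the mm10 build. Cufflinks 2.2.0 then built transcripts strain by strain, these were joined to GENCODE M2, and Cuffnorm 2.2.1 gave the values of each mouse. The deposited table holds FPKM of transcripts and genes as scaled between libraries by the authors, and the deposited assembly holds exon positions. FPKM carry no counts, so the depth behind a value is unknown and no counting interval was computed. The deposited p-values, fold changes or ratios of other kinds were not used, and 0 columns of values per mouse were left out.

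Events were built with exact outer bounds by the definitions of the SUPPA program. PSI was tested where defined in at least 200 mice, without covariates, with limma 3.58.1 in R 4.3.3, p values being adjusted by the Benjamini-Hochberg method over events of all 7 types at a threshold of 0.05. Contrasts of strains with 3 mice came from the same fit. Gene FPKM were tested as log2(FPKM + 1). Replicates are mice of 1 strain. The strain share is an intraclass correlation, computed from the between-strain and within-strain mean squares. The tests were also run on simulated data, which were normal, unbounded and of equal spread in every strain. These meet the assumptions of the test and so do not check it on real PSI. Other software was pandas 2.3.3, scipy 1.17.1 and numpy 2.4.6 under Python 3.11.15, and matplotlib 3.10.9 for the plots. GENCODE M21, which has the coordinates of mm10, gave positions, gene types and, from its transcripts, intron sequences. Where the retaining exon and the exon pair differ in their outer ends, the rule finds no event.

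Named introns were the 12 with the largest strain share, up to 3 called and 2 abundant introns of each gene list, the 5 most abundant, the 3 shortest and 3 longest, the 6 with the largest difference in each parental contrast, and the 5 with the highest PSI, with limits on FPKM of 5 or 20. The members and lists were chosen with earlier results of these data known. Introns named by the same rule without the 18 libraries, and Gas5 and Srsf5 introns shown for their position, were chosen after their values had been seen. Some introns that these rules name are not reported here. Alternatives were other scales of PSI, the Kruskal-Wallis test, other transcripts, covariates, left-out libraries and other junction positions.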

Additional observations from a re-analysis of the deposited data

How the results depend on the processing

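PSI from FPKM rests on how Cufflinks divided reads among transcripts that share most of their sequence. In 62.3% of events every retaining transcript was an unannotated isoform assembled from these libraries. Low retention of abundant genes and any retention in weakly expressed genes are limited by depth, which FPKM do not give. No paired analysis was possible because the replicate numbers were given in accession order and pair no mice across strains. All alternatives with the 18 libraries left out, with junctions moved or with 1 strand alone were chosen after seeing the data.

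Of 62 planned values for the counts and medians, 39 kept their size, which means within a ratio of 1.5 of the main value. For the median PSI it means within the SD of the per-mouse medians. Values that kept their size by this wide rule were not unchanged. The number of retained introns called between strains, 1295, was 738 by the Kruskal-Wallis test, 222 of 1120 with known transcripts, 168 of 779 with transcripts that differ in 1 intron alone, and 719 to 946 with a replicate left out of each strain. Without the 18 libraries it was 592, and then 510 on the logit scale, 352 by the Kruskal-Wallis test, 640 also without BXD-12/TyJ replicate 2, 443 with transcripts of at least 1 FPKM, 153 with known transcripts and 124 with pairs of transcripts. With the 2 like libraries of CXB-6/ByJ counted as 2 mice it was 1323, and 616 without the 18. It was 666 with introns moved onto annotated ones and without the 18, and 353 and 338 on the minus strand alone with and without the 18. The lower counts with known transcripts, pairs and 1 strand partly come from fewer events tested. For the others the cause was not tested. The median strain share, 0.0906, was 0.0523 with pairs of transcripts and 0.059 on the minus strand. Without the 18 libraries it was 0.0543, 0.0497 on the logit scale, 0.0596 also without BXD-12/TyJ replicate 2, 0.0502 with known transcripts, 0.0442 with pairs, 0.0581 with introns moved, 0.0588 on the minus strand and 0.0567 with the 2 like libraries counted as 2 mice.

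DBA/2J differed from C57BL/6J in 4 retained introns in a fit of these strains alone, 21 on the logit scale and 14 to 19 with 1 replicate left out. A/J differed in 9, 29 and 16 to 25. The BXD count was 183 without 16 libraries. Outer bounds free by 10 nt gave 6877 events, transcripts of at least 1 FPKM 2130 events in 1240 genes, and known transcripts 1120 events in 801 genes with a median length of 231 nt. The median PSI was 0.204 with known transcripts and 0.382 with pairs. Of the 79 introns named by rule or shown, 17 lost their call between strains without the 18 libraries, 6 without replicate 1, 8 without replicate 2 and 3 without replicate 3.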

Other observations

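Some introns were set apart by 1 strain. In 10 retained introns at 8 genes, without the 18 libraries, the mean of 1 strain lay at least 0.3 in PSI from the nearest other strain mean. They were chosen for this gap after the values had been seen, with at least 3 mice in the strain, and those reported are given as values with no test. The values of each mouse of the strain are set here against the nearest mean of another strain, not against single mice of other strains. NZB/BlNJ stood apart at Vezt, with 0.992, 1 and 1 against a mean of 0.592. It also stood apart at Galt, an enzyme of galactose metabolism (0.901, 1 and 1 against a mean of 0.439). The same held at a 1687-nt intron of Meg3 (0.862, 0.875 and 0.888 against a mean of 0.423). NON/LtJ stood apart at Matk, a kinase that acts on Src-family kinases, with 0.543, 0.603 and 0.668 against a mean of 0.284. In introns of Gas5 and Srsf5, 1 mouse of the strain stood away from the other two. The 447-nt intron of Gas5, which contains Snord80, had 0.0181, 0.755 and 0.825 in CXB-7/ByJ. The 21-nt intron of Srsf5 had 0, 0.121 and 0.816 in BXD-24/TyJ.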
